A study of Mus musculus with 28 samples.

Results

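The Hox cluster genes encode homeodomain transcription factors that give cells their position along the head-to-tail axis. A member was a probe set whose only gene symbol was Hox, a cluster letter from a to d and a paralog number, and 37 of the 19938 genes measured met this rule. They comprised 10 HoxA, 9 HoxB, 9 HoxC and 9 HoxD genes. Each member had 1 such probe set.

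Within each cluster the genes lie in the order of their paralog numbers. Low-numbered (anterior) genes are known to act in the hindbrain and neck, and high-numbered (posterior) genes in the trunk, tail and limbs. Retinoic acid, which is used to turn aggregates of embryonic stem cells into neural cells, switches on the anterior end of the clusters first, while Polycomb repression keeps unused Hox genes silent. The forebrain, including the cortex, develops without Hox gene activity.

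The series measured mouse cells of strain 129SvEv on 28 Affymetrix whole-transcript arrays in 12 groups. Embryonic stem (ES) cells, neuronal progenitor (NP) cells and cells at the stages labelled TN day 2 and TN day 6 were either wild type or knockout for Top2β (Top2b), a topoisomerase that relieves DNA torsion in postmitotic cells, with 2 arrays per group at the first 3 stages and 3 per group at TN day 6. The TN day 5 groups were given either DMSO or ICRF-193, an inhibitor of both type II topoisomerases, at 50 µM renewed every 24 h from TN day 2 (2 arrays each), and glutamatergic neurons of the E16.5 cortex had received DMSO or ICRF-193 (3 arrays each). The TN abbreviation is not spelled out in the labels, a genotype is not given for the drug groups, and the drug schedule of the cortical neurons and the origin of the knockout line (1 clone or several) are not stated.

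The marker genes matched the labels at the level of the stages. The median of 14 pluripotency genes on an array was 10.29 to 10.33 in wild-type ES cells and 6.41 to 6.58 in wild-type NP cells, all on the log2 scale. The median of 12 pan-neuronal genes was 6.95 to 7.16 in wild-type ES cells and 11.48 to 11.50 in DMSO-treated cortical neurons. Array medians over all probe sets lay between 6.12 and 6.43. Top2b was lower in the knockout at every stage, with a difference of -1.29 ± 0.24 in ES cells (SE, 2 against 2 arrays; limma adjusted p = 0.0177) and of -2.41 ± 0.24 at TN day 2 (limma adjusted p = 1.95e-06). Wild-type ES cells had Top2b values of 7.96 and 7.52 and knockout ES cells of 7.11 (array 1) and 5.79 (array 2), so knockout ES array 1 was the closer to wild type. The files do not tell whether the deletion covers this probe set. Errors are standard errors (SE) of the limma model, and a call is a Benjamini-Hochberg adjusted p under 0.05 over all 19938 genes. As a difference, 1 log2 unit is a 2-fold change. Levels are not compared between genes, since probe sets differ in brightness.

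The first question was which Hox genes changed as wild-type ES cells became NP cells. The anterior and central genes of all 4 clusters rose, most of them by several log2 units. The posterior genes of HoxA, HoxC and HoxD were not called higher, while in HoxB the posterior Hoxb9 and Hoxb13 were. The limma test called 22 of 37 members higher and 3 lower in NP cells, against 46.3% of all genes called, 21.7% higher and 24.5% lower. The median change of the 37 members was 1.58, and that of all genes was 0.05. In bulk samples a change in the share of cells that express a gene and a change in RNA per cell cannot be told apart.

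**Figure D1:**
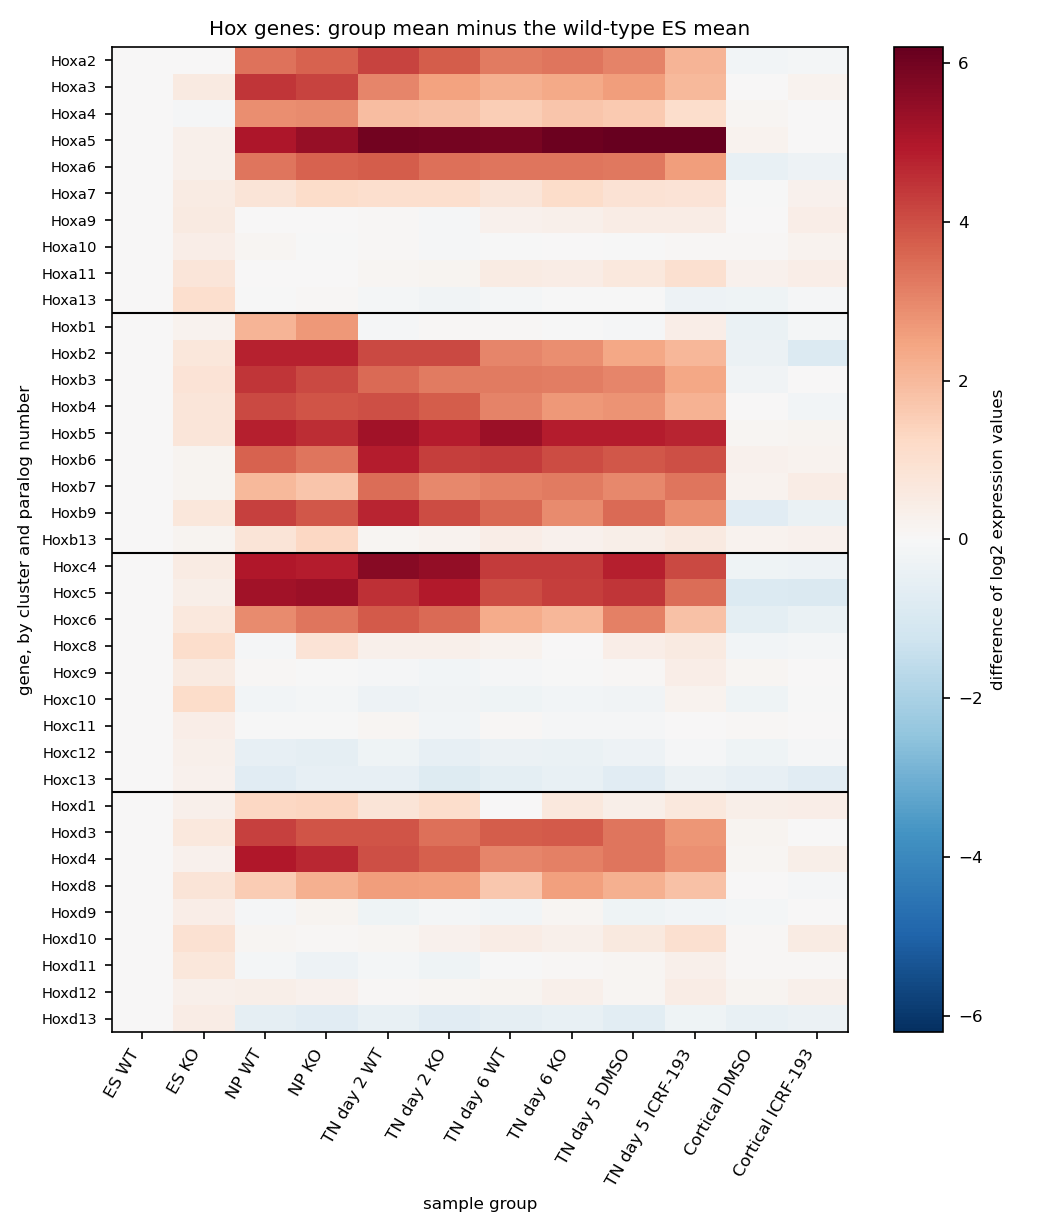
Heat map of the group mean minus the wild-type ES mean (log2 difference, colour scale) for the 37 Hox genes (rows, ordered by cluster and paralog number) in the 12 sample groups (columns). Most anterior and central genes are red from NP cells to TN day 6 and near white in the cortical neurons (Hoxb1 is near white again from TN day 2 and Hoxd1 in wild type at TN day 6), while Hoxa9 to Hoxa13, Hoxc8 to Hoxc13 and Hoxd9 to Hoxd13 are pale in wild-type NP and TN cells.

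In the HoxA cluster the rise ended between Hoxa6 and Hoxa9. Hoxa5, which patterns the neck and upper trunk, had values of 5.26 and 5.21 in ES cells and 10.29 and 10.24 in NP cells. It rose by 5.03 ± 0.22 (adjusted p = 8.13e-14), with both NP arrays far above both ES arrays. Hoxa2, which specifies hindbrain segments and the second pharyngeal arch, rose by 3.37 ± 0.17, Hoxa3 by 4.41 ± 0.19, Hoxa4 by 2.87 ± 0.19 and Hoxa6 by 3.30 ± 0.23. Hoxa7 rose by 0.78 ± 0.14. The next genes, Hoxa9, Hoxa10, Hoxa11 and Hoxa13, had no call, and Hoxa9 stood at 0.01 ± 0.19 with values of 5.25 and 5.38 in ES and 5.26 and 5.38 in NP cells.

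The HoxB cluster was the one in which all 9 measured members were called higher. Hoxb5 had values of 5.47 and 5.51 in ES cells and 10.37 and 10.21 in NP cells, a rise of 4.80 ± 0.20 (adjusted p = 4.73e-14) without overlap. Hoxb1, the hindbrain gene at the anterior end, rose by 2.09 ± 0.16, and Hoxb9, the most posterior gene before the gap to Hoxb13, by 4.22 ± 0.32. Hoxb13, known from the tail end of the embryo, rose by 0.78 ± 0.14, from values of 5.05 and 4.98 to 5.71 and 5.89. These values lie below the array medians of 6.12 to 6.43, and the filter on low values removed this gene. The other risers were Hoxb2 (4.76 ± 0.32), Hoxb3 (4.41 ± 0.23), Hoxb4 (4.09 ± 0.18), Hoxb6 (3.63 ± 0.14) and Hoxb7 (1.99 ± 0.18).

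In the HoxC cluster the first 3 genes rose and the remaining 6 did not. Hoxc5 had values of 5.95 and 5.89 in ES cells and 11.14 on both NP arrays, and its rise of 5.22 ± 0.29 (adjusted p = 6.17e-12) was larger than that of any other member. Hoxc4 rose by 4.97 ± 0.21 and Hoxc6, a gene of the forelimb level of the spinal cord, by 2.92 ± 0.37. The adjacent Hoxc8 stood at -0.06 ± 0.38 and its ES and NP values overlapped. At the posterior end Hoxc12 fell by 0.49 ± 0.18 (limma adjusted p = 0.0317). Hoxc13, a gene of hair and nail formation, fell by 0.69 ± 0.13 (limma adjusted p = 0.000155). The ES and NP values of both genes lie below the array medians of 6.12 to 6.43, and the filter on low values removed both. The Hoxc12 call was lost without ES array 1, ES array 2 or NP array 2, and with median centring or a replicate block (adjusted p up to 0.182).

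In the HoxD cluster the rise ended between Hoxd8 and Hoxd9. Hoxd4, a gene of the hindbrain and upper spinal cord, had values of 5.46 and 5.30 in ES cells and 10.42 and 10.22 in NP cells, a rise of 4.94 ± 0.19 (adjusted p = 1.12e-14). Hoxd3 rose by 4.21 ± 0.15, Hoxd1 by 1.29 ± 0.15 and Hoxd8 by 1.58 ± 0.26, and the groups of each did not overlap. Hoxd9 stood at -0.07 ± 0.18, with values of 5.61 and 5.76 in ES and 5.62 and 5.60 in NP cells. Hoxd13, the digit and genital gene at the posterior end, fell by 0.53 ± 0.18 (limma adjusted p = 0.0209). The call was lost without any 1 of the 4 arrays. Its ES and NP values lie below the array medians of 6.12 to 6.43, and the filter on low values removed this gene.

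**Figure D2:**
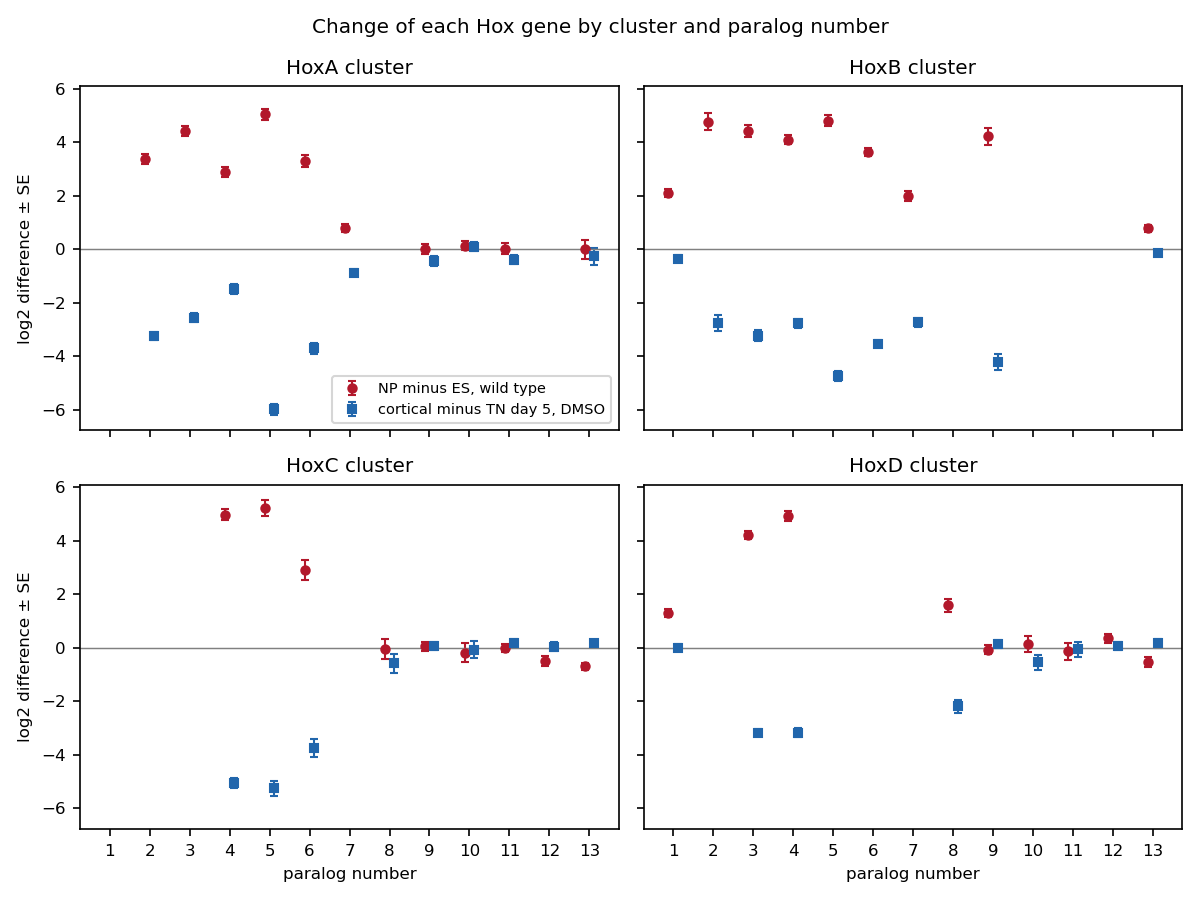
Log2 difference ± SE (vertical axis) of each Hox gene against its paralog number (horizontal axis) in the 4 clusters, for wild-type NP minus ES cells (circles, 2 against 2 arrays) and for cortical neurons minus TN day 5 cells, both with DMSO (squares, 3 against 2 arrays). The circles lie between 1.29 and 5.22 up to Hoxa6, Hoxb9, Hoxc6 and Hoxd8 and between -0.69 and 0.78 beyond them, and the squares of most of these genes lie below 0.

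Taking a rise of at least 1 log2 unit as the mark of a raised gene gave 20 members, Hoxa2 to Hoxa6, Hoxb1 to Hoxb7 and Hoxb9, Hoxc4 to Hoxc6, and Hoxd1, Hoxd3, Hoxd4 and Hoxd8. Their rises ran from 1.29 to 5.22 with a median of 4.15. The members just outside the mark were Hoxa7 and Hoxb13, at 0.78 each. The 17 other members ran from -0.69 to 0.78 around a median of -0.01. These 20 are called the raised genes below, and their rise from ES to NP cells is a description of how they were chosen.

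The bases before the starts of Hoxd4 and Hoxd8, which rose, and of the adjacent Hoxd9, which did not, show the 2 sides of the HoxD boundary. The RefSeq promoter table (build GRCm38.p6) held 21 of the 37 members. The 3 windows of 250 bases lie on the plus strand at chr2:74721728-74721977 for Hoxd4, chr2:74704365-74704614 for Hoxd8 and chr2:74697513-74697762 for Hoxd9. Capitals mark AGGTCA, a core element bound by retinoic acid receptors, or its reverse complement TGACCT.
Hoxd4: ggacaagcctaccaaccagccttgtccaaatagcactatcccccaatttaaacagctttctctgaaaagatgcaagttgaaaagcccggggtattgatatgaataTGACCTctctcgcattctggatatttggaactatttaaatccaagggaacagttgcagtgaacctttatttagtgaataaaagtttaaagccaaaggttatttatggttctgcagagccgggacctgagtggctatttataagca
Hoxd8: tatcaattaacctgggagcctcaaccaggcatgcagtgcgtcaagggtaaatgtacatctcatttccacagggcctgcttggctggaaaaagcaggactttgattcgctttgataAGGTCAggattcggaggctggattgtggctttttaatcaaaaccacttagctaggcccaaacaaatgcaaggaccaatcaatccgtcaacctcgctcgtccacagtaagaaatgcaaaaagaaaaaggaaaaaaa
Hoxd9: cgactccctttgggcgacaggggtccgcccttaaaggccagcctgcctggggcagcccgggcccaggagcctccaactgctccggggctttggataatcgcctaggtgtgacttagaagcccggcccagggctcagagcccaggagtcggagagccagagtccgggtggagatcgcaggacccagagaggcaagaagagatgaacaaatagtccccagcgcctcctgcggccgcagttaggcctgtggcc
Hoxd4 and Hoxd8 hold 1 match each and Hoxd9 holds none.

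Over both strands, AGGTCA was found before 6 of the 21 members (Hoxb4, Hoxc4, Hoxd3, Hoxd4, Hoxd8 and Hoxd10), 5 of 11 raised and 1 of 10 other members, and in 14.02% of all 32851 windows of this length. A direct repeat of AGGTCA with a gap of 5 bases was in 3 windows and before no member. TGATNNAT, a joint site of PBX and HOX proteins, was found before Hoxa2, Hoxb1 and Hoxd11 and in 7.68% of windows. TTTATG, the core of CDX sites, was found before Hoxa7, Hoxd3, Hoxd4 and Hoxd11 (10.8% of windows) and TATAAA before Hoxa10, Hoxd4 and Hoxd13 (12.4%). The member windows had a median GC content of 59.2% against 52.4% and a median of 13 CpG sites against 6 over all windows. A match is a description of the letters only.

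Several genes that lie inside the clusters without being Hox genes also rose from ES to NP cells. Hoxd3os1, a transcript on the strand opposite Hoxd3, rose by 4.97 ± 0.15 (adjusted p = 3.59e-16), Hoxaas2 by 4.48 ± 0.20, 5730596B20Rik by 3.48 ± 0.15 and Haglr, a long non-coding RNA of the HoxD cluster, by 1.55 ± 0.18. The 3 Mir196 genes, which lie near the paralog 9 and 10 genes, had no call. Of the protein-coding genes beside the clusters, Evx1, Evx2 and Skap1 had no call, while Skap2, Smug1, Mtx2 and Calcoco1 rose and Ttll6 fell by 1.02 ± 0.25. Whether probe sets of overlapping genes measure separate transcripts was not tested.

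Both Mir10 genes, which sit beside Hoxb4 and Hoxd4, were called higher in NP cells, Mir10b by 3.88 ± 0.22 and Mir10a by 1.01 ± 0.28. Their mature products are shown because they share a seed (bases 2 to 8, in capitals) and differ at 1 of 23 positions; the probe sets measure RNA of the gene, not the mature form. The RefSeq entries (GRCm38.p6, plus strand) lie at chr11:96317186-96317208 for miR-10a-5p and chr2:74726074-74726096 for miR-10b-5p.
miR-10a-5p: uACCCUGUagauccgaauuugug
miR-10b-5p: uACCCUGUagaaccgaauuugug
From NP cells to TN day 2 the pair diverged in sign, Mir10a rising by 2.16 ± 0.28 (adjusted p = 9.2e-07) and Mir10b falling by 0.61 ± 0.22 (adjusted p = 0.0234).

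The partners and upstream factors of Hox genes changed over the same step. All 8 measured Pbx, Meis and Pknox genes, which encode the DNA-binding partners of Hox proteins, were called higher, among them Meis2 by 4.31 ± 0.39 and Meis1 by 3.77 ± 0.26. Of 17 retinoic acid genes, 10 rose and 3 fell, and the largest changes by p were in Cyp26b1 (4.72 ± 0.17), which breaks retinoic acid down, and Crabp2 (4.49 ± 0.24), which carries it to the nucleus. Of 18 Polycomb genes, 7 rose and 8 fell, and Cbx7 fell by 2.67 ± 0.24. Of 12 forebrain genes, 3 rose and 3 fell, with a median change of 0.15 against 0.05 for all genes. Otx2, the fore- and midbrain factor, was among those that fell, but the list as a whole did not shift downward.

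The next steps asked how the pattern moved as progenitors became neurons. From NP cells to TN day 2 the wild-type changes went in both directions, with 6 of 37 members called higher and 7 lower, against 48.2% of all genes called, 21.6% higher and 26.6% lower. The members that rose further were Hoxa2 (0.82 ± 0.17), Hoxa5 (0.95 ± 0.22), Hoxb6 (1.24 ± 0.14), Hoxb7 (1.47 ± 0.18), Hoxc4 (0.68 ± 0.21) and Hoxd8 (1.02 ± 0.26). The members that fell were Hoxa3 (-1.40 ± 0.19), Hoxa4 (-0.97 ± 0.19), Hoxb1 (-2.18 ± 0.16), Hoxb3 (-0.91 ± 0.23), Hoxb13 (-0.67 ± 0.14), Hoxd1 (-0.48 ± 0.15) and Hoxd4 (-0.94 ± 0.19). Genes that had risen together from ES to NP cells thus moved in opposite directions in the next step. The Hoxd8 call was lost without TN day 2 array 2 (adjusted p = 0.101), and the Hoxd1 call without that array or NP array 1 and with quantile normalization or array weights (adjusted p up to 0.155).

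Hoxb1 had its highest values in NP cells. Its wild-type values were 6.36 and 6.64 in ES cells, 8.70 and 8.48 in NP cells, 6.50 and 6.32 at TN day 2 and 6.44, 6.54 and 6.69 at TN day 6. The knockout followed the same course, with 9.08 and 9.28 in NP cells and 6.57 and 6.55 at TN day 2. Hoxb13 had a like course, with NP values of 5.71 and 5.89 for the wild type, 6.32 and 6.24 for the knockout, and values between 5.02 and 5.32 in both genotypes at TN day 2. Over the same step Hoxd3os1 fell by 4.20 ± 0.15 (limma adjusted p = 7.01e-15), while Hoxd3, which it overlaps, had no call over this step in wild type (10.88 and 10.81 in NP cells, 10.81 and 10.25 at TN day 2).

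From TN day 2 to TN day 6, 11 of 37 members fell and 0 rose in wild type, against 28.5% of all genes called, 11.9% lower and 16.7% higher. The 11 were Hoxa2, Hoxa3, Hoxb2, Hoxb4, Hoxb6, Hoxb9, Hoxc4, Hoxc6, Hoxd1, Hoxd4 and Hoxd8, all of them among the 20 raised genes. Most other members were near their wild-type ES values at TN day 2, with little room to fall. The changes ran from -1.47 ± 0.34 for Hoxc6 to -0.56 ± 0.13 for Hoxb6. Hoxa5 and Hoxb5 had no call over this step, and Hoxa5 held values of 11.17, 11.16 and 11.04 at TN day 6 after 11.23 and 11.21 at TN day 2. All 9 cell cycle genes, 8 of 11 neural progenitor genes and 8 of 12 mesenchymal genes were called lower over the same step, and their part in the Hox changes was not tested. Of the 11 calls, those of Hoxb2, Hoxb6, Hoxb9 and Hoxd8 were each lost without 1 of the 2 TN day 2 arrays (adjusted p up to 0.214).

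After the ES stage, pairs of raised genes with the same paralog number had a higher median correlation than pairs of the same cluster, as a description. Over the 8 groups of NP and TN cells, the median Pearson correlation of group means was 0.73 for 17 pairs with the same paralog number, 0.37 for 47 pairs of the same cluster and 0.48 for 126 pairs that share neither. The pairs share genes, arrays and the steps of differentiation. Single pairs ran from -0.95 to 0.98, and those with the same paralog number from -0.76 to 0.96. Over all 12 groups the medians were close, at 0.96 for the same paralog number, 0.91 for the same cluster and 0.93 for neither.

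In the cells lacking Top2β the same Hox genes were called higher from ES to NP cells, with a smaller median rise. Over the 20 raised genes, which were chosen by their rise in wild type, the median was 3.25 against 4.15 in wild type. The change was below that of wild type for 31 of 37 members, with a median difference of -0.49 (-0.02 over all genes). In the knockout, 22 members were called higher from ES to NP cells against 37% of all genes called and 16.3% called higher, and these were the same 22 genes as in wild type (100% of each list). Hoxa5 rose by 5.08 ± 0.22, Hoxb5 by 3.85 ± 0.20, Hoxc5 by 4.91 ± 0.29 and Hoxd4 by 4.39 ± 0.19. The knockout also had 11 members called lower, against 20.7% of all genes; these included the 3 of wild type (100% of the wild-type list and 27.3% of the knockout list) and Hoxa9, Hoxa11, Hoxa13, Hoxc9, Hoxc10, Hoxc11, Hoxd10 and Hoxd11. The change from ES to NP cells was not called different between the genotypes for any member (limma, 0 of 37 called, 14 at an unadjusted p under 0.05, against 0.256% of all genes called). Without knockout ES array 2 this count was 21, and without array 1 it was 1. The 8 lower calls made in the knockout alone were all lost without knockout ES array 1, which left 23 higher and 3 lower calls, and without knockout NP array 2 there were 4 lower. With the fit limited to the arrays compared, the knockout step had 19 higher and 2 lower calls, and with the filter on low values, which left 21 members, 20 higher and 0 lower.

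From NP cells to TN day 2 in the knockout, 4 Hox genes rose and 7 fell, against 44.4% of all genes called, 19.6% higher and 24.8% lower. All 4 risers were among the 6 of wild type (66.7% of the wild-type list), and 6 of the 7 that fell were among the 7 of wild type (85.7% of each list). Hoxb1 fell by 2.62 ± 0.16 and Hoxb7 rose by 1.28 ± 0.18 (limma, adjusted p = 1.66e-11 and 5.1e-06). From TN day 2 to TN day 6 in the knockout, 8 fell and 2 rose (34.8% of all genes called, 12.8% lower and 22.1% higher), and the 8 that fell were all among the 11 of wild type (72.7% of that list). The 2 that rose were Hoxc13 by 0.32 ± 0.12 and Hoxd3 by 0.39 ± 0.14. Without knockout TN day 2 array 2 the count of the last step was 6, all lower. These steps use the same TN arrays as the comparisons of genotypes.

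In ES cells themselves the Hox genes of the knockout depended on the array. No member was called (limma, 22 at an unadjusted p under 0.05; 0.351% of all genes called), the median difference was 0.49 against 0.01 for all genes, and 20 members had both knockout arrays above both wild-type arrays against 15.6% of all genes. Hoxc10, a posterior gene of the lumbar level, had values of 5.03 and 5.02 in wild type and 7.20 and 5.10 in the knockout. Hoxc6 had values of 6.09 and 5.63 in wild type and 7.53 and 5.52 in the knockout. Hoxd3 was the member with the smallest p, with values of 6.70 and 6.56 in wild type and 7.22 and 7.38 in the knockout (0.67 ± 0.15, adjusted p = 0.0526). Of these 3 genes, Hoxd3 alone was high on both knockout arrays.

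**Figure D3:**
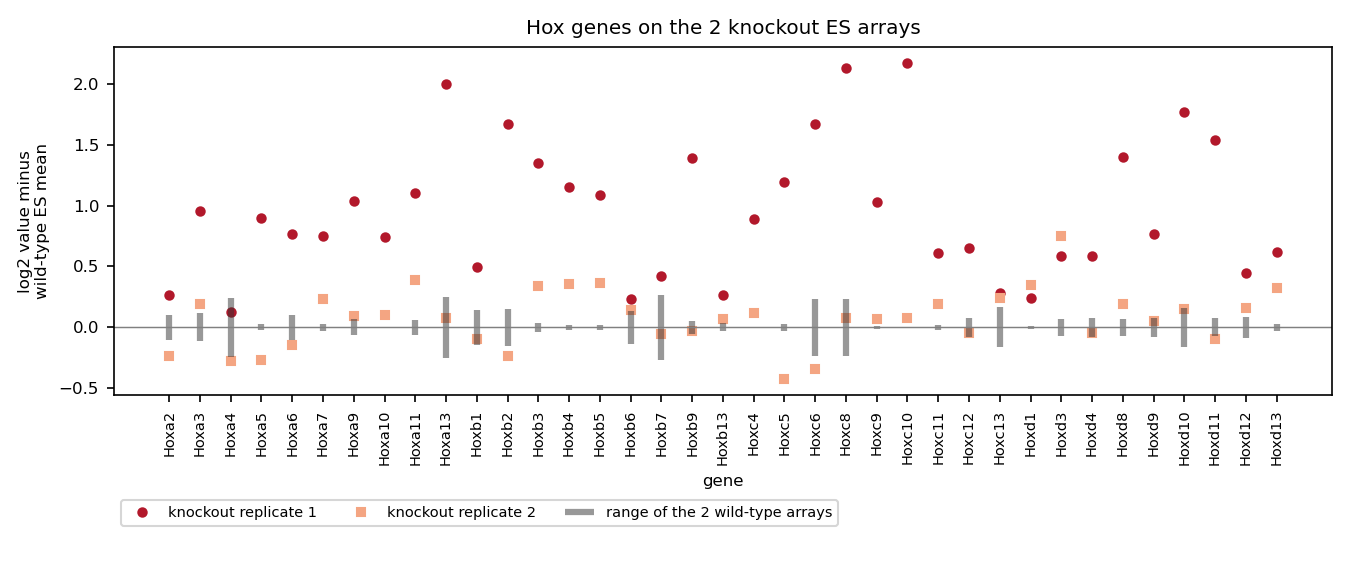
Log2 value of each Hox gene on the 2 knockout ES arrays minus the mean of the 2 wild-type ES arrays (vertical axis), with the range of the wild-type arrays as bars, for the 37 genes (horizontal axis). The points of knockout replicate 1 lie above 0 for 37 of 37 genes, and those of replicate 2 for 24 of 37.

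Knockout ES array 1 was above the wild-type mean for 37 of 37 members, by a median of 0.89, and array 2 for 24 of 37, by a median of 0.08. Members with no rise in wild-type NP cells, such as Hoxa13 (6.75 on array 1 against 4.83 on array 2), Hoxc8 (8.60 against 6.54) and Hoxd11 (7.26 against 5.63), were higher on array 1. The same array was above the wild-type mean for 12 of 12 mesenchymal genes (median 1.86) and 7 of 8 early mesoderm genes (median 1.87), and below it for 13 of 14 pluripotency genes (median -0.96). On array 2 these medians were -0.23, -0.09 and 0.07. With array 2 left out the count of called members was 29, and with array 1 left out it was 0. The part of these markers in the Hox values was not tested.

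At the NP stage the genotypes did not differ by the test for any member (limma, 0 of 37 called, 7 at an unadjusted p under 0.05; 0.627% of all genes called). The differences ran from -0.40 to 0.93, with 18 above and 19 below 0. The largest was that of Hoxc8, with values of 6.34 and 6.48 in wild type and 7.30 and 7.38 in the knockout. Its SE takes in the spread of all 12 groups, including the knockout ES arrays at 8.60 and 6.54. The absence of a call here does not show that the genotypes were equal. At this stage Hoxd8 had values of 6.61 and 6.30 in wild type and 7.08 and 7.04 in the knockout (0.60 ± 0.26, adjusted p = 0.555).

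At TN day 2 the knockout was lower in 2 members and higher in none, against 11.5% of all genes called, 5.97% lower and 5.49% higher. Hoxb6, a gene of the neck and thoracic levels, had values of 11.15 and 10.72 in wild type and 10.38 and 10.31 in the knockout (-0.59 ± 0.14, adjusted p = 0.00687). Hoxd3, needed for the first vertebrae, had values of 10.81 and 10.25 in wild type and 10.09 and 9.97 in the knockout (-0.50 ± 0.15, adjusted p = 0.0309). In both, the knockout arrays lay below the wild-type arrays, and wild-type array 1 was the highest. Without wild-type array 1, or without knockout array 2, neither was called, and without knockout array 1 Hoxd3 was not (adjusted p up to 0.225 for Hoxb6 and 0.609 for Hoxd3).

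The median difference at TN day 2 was -0.14 over the 37 members and -0.04 over all genes. Of the 20 raised genes, 17 were lower in the knockout on average, with a median of -0.27. Beside this, 7 of 12 pan-neuronal genes were called lower, with an array median of 10.80 to 11.03 in wild type and 10.37 to 10.58 in the knockout. In addition, 5 of 12 mesenchymal genes were called higher, with an array median of 7.56 to 8.79 in wild type and 9.15 to 10.05 in the knockout. The part of these markers in the Hox differences was not tested.

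**Figure D4:**
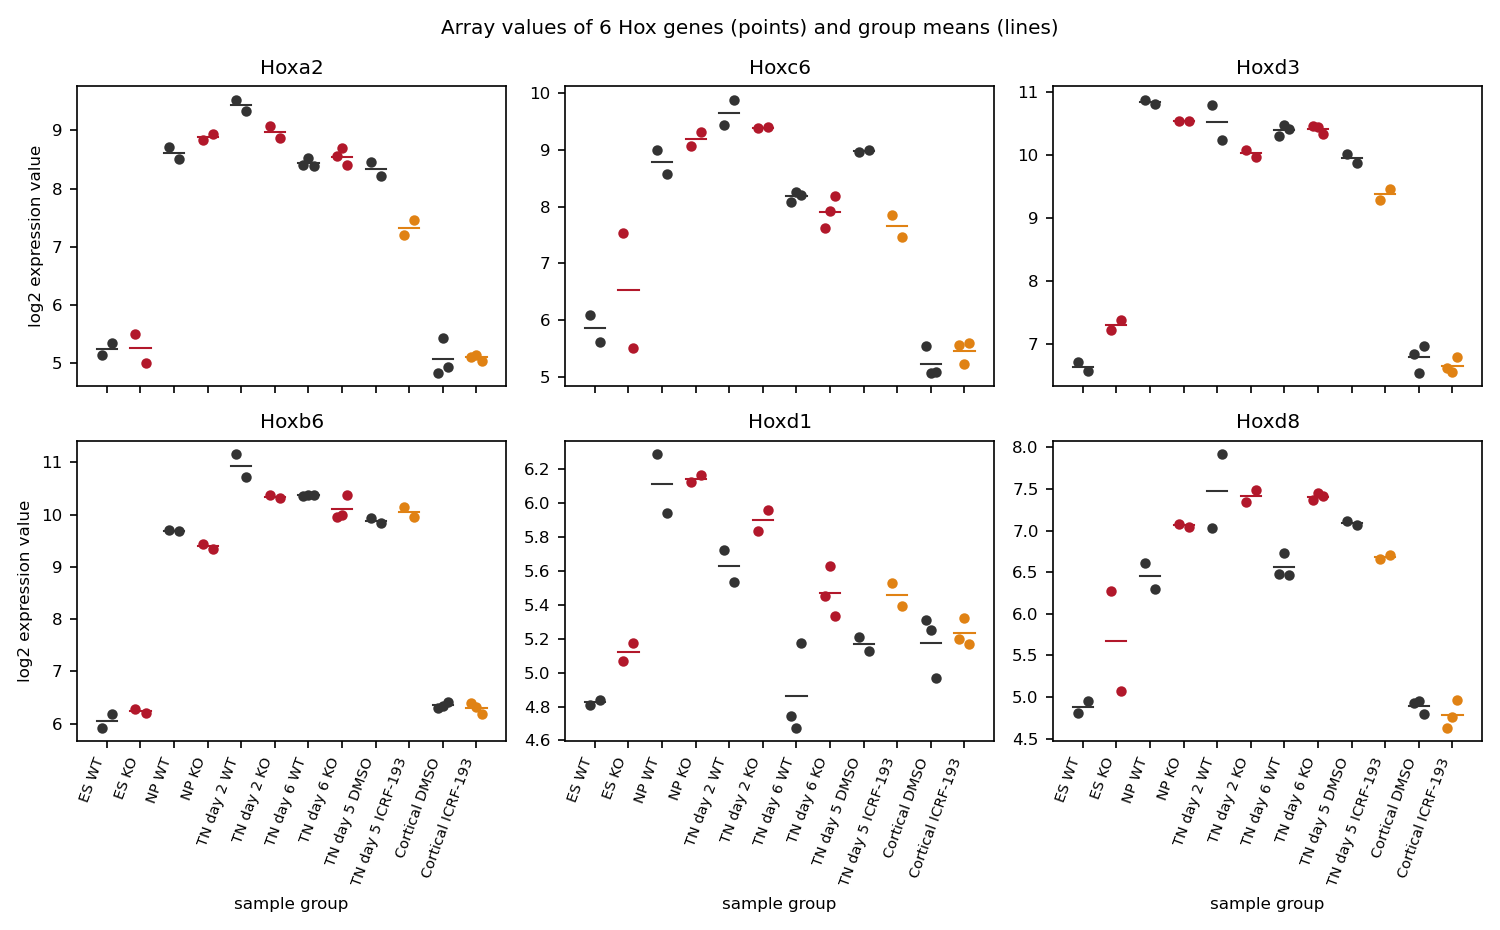
Log2 values of Hoxa2, Hoxc6, Hoxd3, Hoxb6, Hoxd1 and Hoxd8 on each of the 28 arrays (points) with group means (lines) in the 12 groups (horizontal axis); knockout groups are red, ICRF-193 groups orange and the others dark. At TN day 6 the 3 knockout arrays of Hoxd1 and of Hoxd8 lie above the 3 wild-type arrays, and at TN day 5 both ICRF-193 arrays of Hoxa2 and Hoxc6 lie below both DMSO arrays.

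At TN day 6 the knockout was called higher in 3 members and lower in none, against 10.2% of all genes called, 5.38% higher and 4.8% lower. Hoxd8, the central HoxD gene next to the boundary, had values of 6.47, 6.74 and 6.47 in wild type and 7.37, 7.45 and 7.42 in the knockout (0.85 ± 0.21, adjusted p = 0.00952). Hoxd1, a gene of pain-sensing neurons, had values of 4.75, 4.68 and 5.17 in wild type and 5.45, 5.63 and 5.33 in the knockout (0.61 ± 0.12, adjusted p = 0.00161). In both genes every knockout array was above every wild-type array. Hoxa7 had values of 6.98, 7.21 and 7.14 in wild type and 7.43, 7.58 and 7.43 in the knockout (0.37 ± 0.12, adjusted p = 0.0489), and its call was lost without any 1 of the 6 arrays and with quantile normalization or median centring (adjusted p up to 0.216). Of all 37 differences 22 were above 0 and 15 below. In the HoxB cluster 8 of 9 were below 0, with 4 at an unadjusted limma p under 0.05 and none called. Hoxb9 had the lowest difference (-0.60), with values of 10.38, 10.56 and 10.42 in wild type and 9.76, 9.71 and 10.11 in the knockout.

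The Hoxd1 and Hoxd8 calls at TN day 6 held in all 12 and 13 alternatives run for them (adjusted p up to 0.0227 and 0.0446). Hoxd1 was removed by the filter on low values, so that alternative could not test it. All its TN day 6 values lie below the array medians of 6.12 to 6.43. Those for Hoxd1 and Hoxd8 are from a low and a higher range of values. At TN day 2 the knockout values were 5.83 and 5.96 for Hoxd1 and 7.34 and 7.49 for Hoxd8, where the wild type had 5.72 and 5.54 and 7.03 and 7.92. Both genes fell from TN day 2 to TN day 6 in wild type, Hoxd1 by 0.76 ± 0.14 and Hoxd8 by 0.92 ± 0.24. In the knockout Hoxd1 fell by 0.43 ± 0.14 and Hoxd8 had no call. The difference between genotypes in this step was not called for any member (limma, 0 of 37, 6 at an unadjusted p under 0.05; 4.8% of all genes called). The same held for the step from NP cells to TN day 2 (0 of 37, 3 at an unadjusted p under 0.05; 2.71% of all genes called). Without wild-type TN day 2 array 1 or array 2 the first of these counts was 1. With the fit limited to the arrays compared, 5 members were called at TN day 6 (3 higher and 2 lower), and with array weights 7 (3 higher and 4 lower).

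The knockout difference was also set against that in ES cells. At TN day 2 it was lower than in ES cells for 6 of 37 members and higher for none (limma; 7.1% of all genes called, 3.49% lower), and at TN day 6 it was lower for 3 and higher for none (5.8% of all genes called, 2.81% lower). The members were Hoxa3, Hoxb3, Hoxb4, Hoxb5, Hoxb6 and Hoxd3 at TN day 2 and Hoxb4, Hoxb5 and Hoxd3 at TN day 6. Without knockout ES array 1 the counts were 3 and 1, and without knockout ES array 2 they were 32 and 23. Against NP cells, the difference at TN day 6 was called for no member (limma, 0 of 37, 4 at an unadjusted p under 0.05; 4.97% of all genes called), and for 1 without wild-type TN day 6 array 2 or array 3.

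Several lists moved beside these genes at TN day 6. All 9 cell cycle genes were higher in the knockout, with an array median of 6.62 to 6.95 in wild type and 7.70 to 8.01 in the knockout. Of 11 neural progenitor genes 6 were higher, with array medians of 7.24 to 7.39 and 8.18 to 8.63. Of 17 retinoic acid genes 7 were higher and none lower, among them Crabp2 (1.22 ± 0.19) and Aldh1a2 (1.59 ± 0.30), which makes retinoic acid. Among the Hox partners Pbx3 (-1.21 ± 0.19) and Meis1 (-0.81 ± 0.21) were lower and Pknox1 (0.38 ± 0.08) was higher. Evx2 (0.44 ± 0.11) and Evx1 (0.58 ± 0.17), the genes beyond the posterior ends of the HoxD and HoxA clusters, were also higher. The part of these lists in the Hox differences was not tested.

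ICRF-193 at TN day 5 asked what blocking type II topoisomerases does to genes already on. It lowered 7 of 37 members and raised none, against 8.89% of all genes called, 6.37% lower and 2.51% higher. All 7 were raised genes of paralog numbers 2 to 6. Most members outside the raised genes were near their wild-type ES values with DMSO, with little room to fall. Hoxa2 had DMSO values of 8.45 and 8.21 and ICRF-193 values of 7.20 and 7.46 (-1.001 ± 0.17, adjusted p = 0.000636). Its groups did not overlap, and its call held in all 11 alternatives (adjusted p up to 0.026).

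The HoxC genes that rose in NP cells were all lower with the drug. Hoxc6 had DMSO values of 8.96 and 8.996 and ICRF-193 values of 7.86 and 7.46 (-1.32 ± 0.37, adjusted p = 0.0297). Hoxc5 had DMSO values of 10.15 and 10.55 and ICRF-193 values of 9.36 and 9.43 (-0.96 ± 0.29, adjusted p = 0.0445). Hoxc4 had DMSO values of 9.89 and 9.80 and ICRF-193 values of 9.08 and 9.22 (-0.69 ± 0.21, adjusted p = 0.039). In all 3 both drug arrays lay below both DMSO arrays.

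The other called members were spread over the remaining clusters. Hoxb4 had DMSO values of 8.53 and 8.48 and ICRF-193 values of 7.69 and 8.03 (-0.65 ± 0.18, adjusted p = 0.0296). Hoxa3 had DMSO values of 7.49 and 7.36 and ICRF-193 values of 6.59 and 7.05 (-0.60 ± 0.19, adjusted p = 0.0492). Hoxd3 had DMSO values of 10.02 and 9.88 and ICRF-193 values of 9.28 and 9.47 (-0.58 ± 0.15, adjusted p = 0.017). The groups did not overlap in any of the 3.

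Not every raised gene was lower. Hoxa5 had DMSO values of 11.47 and 11.39 and ICRF-193 values of 11.41 and 11.46, which overlap. Hoxb6 had DMSO values of 9.94 and 9.83 and ICRF-193 values of 10.15 and 9.94. Hoxb1 had DMSO values of 6.49 and 6.39 and ICRF-193 values of 7.08 and 6.73 (0.46 ± 0.16, adjusted p = 0.0703). The DMSO values of Hoxb1 were already near those of wild-type ES cells (6.36 and 6.64), which leaves little room for a fall. Over the 20 raised genes the median difference was -0.56, with 16 below 0, and over the 17 other members it was 0.21. Over all genes it was 0.02. With DMSO the 17 lay from -0.68 (Hoxc13) to 0.88 (Hoxa7) from the wild-type ES mean, most of them nearer to it, such as Hoxa10 (-0.04). Hoxa7, the furthest above it, had DMSO values of 7.32 and 7.12 and ICRF-193 values of 7.36 and 7.05, which overlap. Most of the 17 had little room to fall, so the contrast with the raised genes does not show a selective effect.

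**Figure D5:**
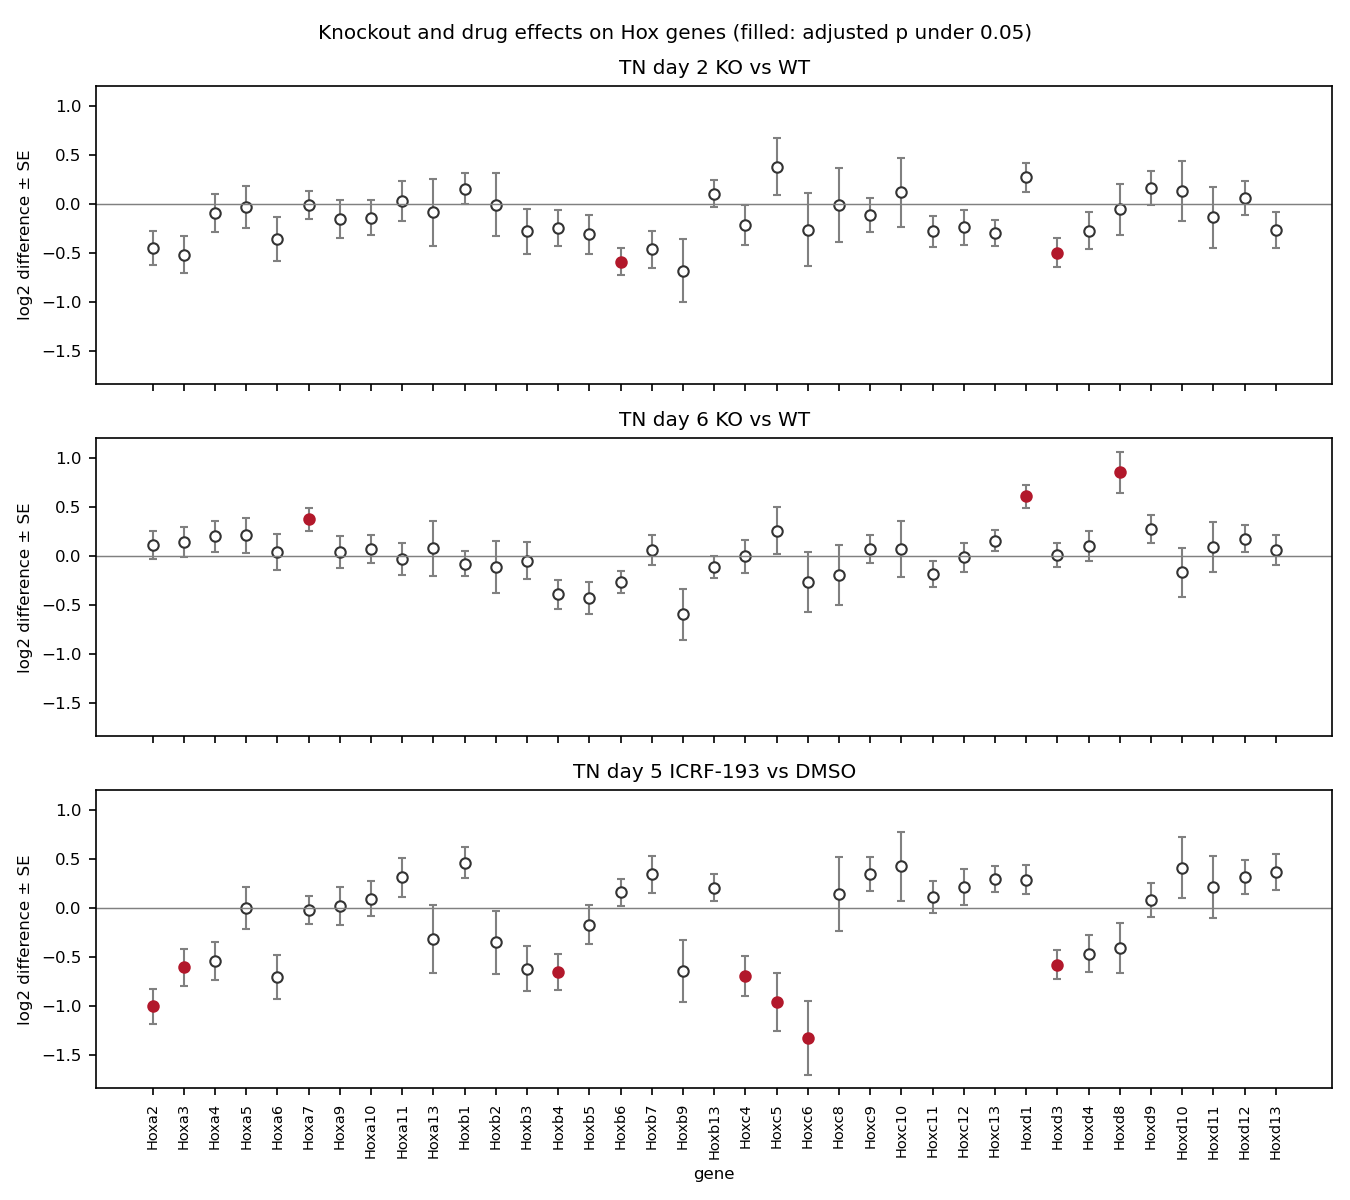
Log2 difference ± SE (vertical axis) of the 37 Hox genes (horizontal axis) for knockout minus wild type at TN day 2 (2 against 2 arrays) and TN day 6 (3 against 3) and for ICRF-193 minus DMSO at TN day 5 (2 against 2); filled points have an adjusted p under 0.05. The filled points lie below 0 at TN day 2 (2 genes) and TN day 5 (7 genes) and above 0 at TN day 6 (3 genes).

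The number of calls at TN day 5 rested on single arrays. It was 2 without DMSO array 1, 1 without DMSO array 2, 1 without ICRF-193 array 1 and 5 without ICRF-193 array 2 (4 lower and 1 higher). It was 3 with the fit limited to the 4 arrays compared and 3 with array weights. With quantile normalization it was 5, of which 4 were lower and 1 higher.

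Of 8 partners of Hox proteins 3 were called lower and none higher: Pbx3 by -2.81 ± 0.23, Meis1 by -1.39 ± 0.26 and Meis2 by -1.64 ± 0.39. The median change of the 8 was -0.45, but their array median was 8.56 to 8.64 with DMSO and 8.58 to 8.66 with ICRF-193. Of 17 retinoic acid genes, the receptor gene Rarb (-1.33 ± 0.31) and Dhrs3 (-0.79 ± 0.19) were lower and none was higher. Of 9 cell cycle genes 8 were lower, with an array median of 7.05 to 7.81 with DMSO and 6.26 to 6.48 with ICRF-193. Of 11 neural progenitor genes 5 were lower, with array medians of 7.54 to 7.71 and 6.14 to 6.55. The part of these lists in the Hox differences was not tested.

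The 7 members lower with ICRF-193 and the 2 lower in the knockout at TN day 2 shared Hoxd3, which is 14.3% of the first list and 50% of the second. These comparisons share no array. Hoxa2 stood at -0.45 ± 0.17 in the knockout at TN day 2 and at 0.11 ± 0.14 at TN day 6, with no call at either. Hoxd8, higher in the knockout at TN day 6, stood at -0.41 ± 0.26 with ICRF-193.

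Cortical neurons lacked the Hox pattern of the cells made in culture. With DMSO, 21 of 37 members were lower in cortical neurons than in TN day 5 cells and none was higher, against 44.8% of all genes called, 20.4% lower and 24.4% higher. Hoxa5 had values of 5.47, 5.42 and 5.41 in cortical neurons and 11.47 and 11.39 at TN day 5, a difference of -6.00 ± 0.20 (adjusted p = 1.13e-15). Hoxc5 differed by -5.26 ± 0.27, Hoxc4 by -5.06 ± 0.19 and Hoxb5 by -4.76 ± 0.18. The median over the 20 raised genes was -3.21. Over the 17 other members, most of them near their wild-type ES values at TN day 5, it was -0.06. Of the 22 members that rose from ES to NP cells, 20 were among the 21 (90.9% and 95.2% of the lists), the exceptions being Hoxb13 and Hoxd1. The calls of Hoxa9 and Hoxb1 were lost without several single arrays (adjusted p up to 0.339 and 0.499).

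The plot of changes by paralog number sets this difference beside the change from ES to NP cells. Across the 37 genes the Pearson correlation of the change from ES to NP cells with the cortical difference was -0.918, given as a description. The contrasts share probe sets but no arrays. Cortical and ES values were close for most members, so a gene that rose in NP cells and stayed high at TN day 5 gives a negative cortical difference. A negative correlation is therefore largely built in. Of 12 forebrain genes 9 were higher in cortical neurons, among them Neurod6 (6.45 ± 0.13) and Tbr1 (4.79 ± 0.14), factors of cortical excitatory neurons. Of 11 spinal and hindbrain neuron genes 7 were lower, among them Pou4f1 (-3.09 ± 0.23), and of 8 Hox partners 5 were lower, among them Meis1 (-3.45 ± 0.24). Other lists differed too, with 7 of 9 cell cycle genes higher in cortical neurons and none lower. Of 11 neural progenitor genes 5 were higher and 3 lower, and of 12 mesenchymal genes 2 were higher and 7 lower. The part of these lists in the Hox differences was not tested. The experiment and the origin of the cells cannot be told apart in this comparison.

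Cortical Hox values were close to those of wild-type ES cells. Against these, 1 member was called higher (Hoxd1, 0.35 ± 0.14) and 5 lower (Hoxb1, Hoxb9, Hoxc5, Hoxc13 and Hoxd13, from -0.83 to -0.42), where 59.3% of all genes were called, 28.8% higher and 30.4% lower. None of these 6 calls held in every alternative run, and the count was 2 without ES array 1, 3 without ES array 2 and 3 without cortical array 3. The comparison with ES cells uses the same cortical arrays as the one with TN day 5.

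ICRF-193 in cortical neurons called no Hox gene (limma, 0 of 37, 3 at an unadjusted p under 0.05), while 23.4% of all genes were called. The differences ran from -0.49 to 0.42. Hoxa2 had DMSO values of 4.84, 5.44 and 4.94 and ICRF-193 values of 5.12, 5.15 and 5.04, which overlap. With the fit limited to the arrays compared 6 members were called (5 higher and 1 lower), with array weights 5 (4 higher and 1 lower), and with quantile normalization or median centring 1. These cortical DMSO values were near those of wild-type ES cells (5.14 and 5.35 for Hoxa2), which leaves little room to measure a fall with the drug. With this limit, the effect of the drug on Hoxa2 at TN day 5 was lower than in cortical neurons by -1.03 ± 0.22 (limma interaction contrast, adjusted p = 0.00706; 1 of 37 called, against 4.37% of all genes called and 1.69% called lower). It was not called without DMSO array 1 or without ICRF-193 array 1 of TN day 5 (adjusted p up to 0.0578), and the count was 2 without ICRF-193 array 2 of TN day 5 or of the cortical neurons.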

How the data were processed

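RNA of the 28 samples was measured on Affymetrix whole-transcript arrays, 1 array per sample. The deposited table holds log2 expression values for 35556 probe sets, and the submitters' processing notes name oligo 1.14.0. The sources used here do not name the summarization, background correction, logarithm base or genome build; base 2 was read from the range of 1.96 to 13.99. Of the probe sets, 21789 carried 1 gene symbol in the platform annotation, 1621 several and 12146 none; for a gene with several probe sets the one with the highest mean was kept (19938 genes). With limma 3.58.1 (R 4.3.3), a mean for each of 12 groups was estimated over the 28 arrays (16 residual and 4.87 prior degrees of freedom), and two-sided p-values were adjusted by Benjamini-Hochberg over all genes. The spread of a gene was thus shared by all comparisons. Where a Hox gene differed widely between the knockout ES arrays, its SE was larger in every comparison. The fit was tested on simulated data. The labels do not say that replicates were separate cultures or animals, so p-values measure the spread between arrays, and the number of arrays limits the precision. The Hox genes, the gene lists and the comparisons were chosen with earlier results of these data known. Any Hox gene may be named, with array values for members called in a knockout or drug comparison and the largest riser of each cluster; other genes are the smallest adjusted p of a list (up to 3), or genes chosen by position in or beside a cluster. Alternatives were quantile normalization, median centring, the arrays compared only, array weights, a replicate block, the mean of all probe sets, a filter on low values and leaving out each array. The deviations of same-numbered arrays from their group means correlated at -0.11 to 0.05, and at 0.29 for the TN day 5 groups, which hold only 2 pairs; the labels give no shared origin, so numbers were not taken to pair the arrays.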

Additional observations from a re-analysis of the deposited data

Results flagged for a closer look

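The difference between ICRF-193 and DMSO for Hoxa2 was lower at TN day 5 than in cortical neurons, by -1.03 (TN day 5 minus cortical neurons; limma, adjusted p = 0.00706, 2 arrays per group at TN day 5 and 3 per group in cortical neurons). Both ICRF-193 arrays lay below both DMSO arrays at TN day 5, and the cortical groups overlapped. Hoxa2 was on at TN day 5 (8.45 and 8.21 with DMSO) and at the level of wild-type ES cells in cortical neurons (4.84, 5.44 and 4.94 against 5.14 and 5.35), so the contrast does not show that the drug acts differently on an active gene. Without DMSO array 1 or ICRF-193 array 1 of TN day 5 it was not called (adjusted p up to 0.0578).

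The knockout effect at TN day 2 was lower than in ES cells for 6 members: -1.09 for Hoxa3, -1.13 for Hoxb3, -1.003 for Hoxb4, -1.04 for Hoxb5, -0.77 for Hoxb6 and -1.17 for Hoxd3 (limma, adjusted p from 0.00217 to 0.0378; 7.1% of all genes were called, 3.49% lower). At TN day 6 it was lower than in ES cells by -1.15 for Hoxb4, -1.16 for Hoxb5 and -0.65 for Hoxd3 (adjusted p from 0.00452 to 0.0472; 5.8% of all genes called, 2.81% lower). Both contrasts use the same ES arrays, of which knockout array 1 was high for 37 of 37 members and for the mesenchymal and mesoderm markers given above. Without that array the counts were 3 (2 lower and 1 higher) and 1, and without knockout ES array 2 they were 32 and 23. For TN day 2 the count was also 2 without wild-type ES array 1, 3 without wild-type ES array 2, 1 without wild-type TN day 2 array 1 and 1 without knockout TN day 2 array 2. None of these 9 calls held in every alternative, and their cause was not tested.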

How the results depend on the processing

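Of 277 counts of called Hox genes under an alternative, 211 were within 1.5 times the main count, and of 1747 values of called genes 1508 kept their call, 239 lost it and 0 changed direction. From wild-type ES to NP cells, 23 of 25 calls held in every alternative run for them. The next steps kept 11 of 13 (NP to TN day 2) and 7 of 11 (TN day 2 to TN day 6). In the knockout these steps kept 21 of 33, 8 of 11 and 5 of 10. Between cortical and TN day 5 cells 19 of 21 held. Between genotypes 0 of 2 held at TN day 2 and 2 of 3 at TN day 6, and for ICRF-193 at TN day 5 1 of 7 held. The filter on low values could not test the genes it removed. The cause of the other changes was not tested. With quantile normalization the count was 1 for knockout ES cells, 1 for ICRF-193 in cortical neurons, 1 for the knockout effect in NP minus ES cells, 3 for TN day 2 minus ES and 2 for TN day 6 minus NP. With median centring it was 1 for ICRF-193 in cortical neurons and 1 for TN day 6 minus NP. With the arrays compared only it was 1 for knockout NP cells, 0 at TN day 2, 5 at TN day 6, 3 for ICRF-193 at TN day 5 and 6 in cortical neurons, 4 for the difference of these drug effects, 21 for knockout ES to NP, 11 for cortical against ES cells, and 1, 0, 1 and 3 for the knockout effect in TN day 6 minus TN day 2, TN day 2 minus ES, TN day 6 minus ES and TN day 6 minus NP. With array weights the same results gave 2, 1, 7, 3, 5, 3, a count within 1.5 times, 10, and 2, 0, 0 and 3. The filter on low values gave 1 for knockout ES cells, 1 for the knockout effect in NP minus ES cells, 20 for knockout ES to NP and 1 for TN day 6 minus NP.

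With the replicate number as a block the counts were 8 for ICRF-193 at TN day 5, 4 for the difference of the drug effects, 3 at TN day 2, 3 at TN day 6 and 1 for the knockout effect in TN day 6 minus NP; no other count moved by over 1.5 times. Wild-type and knockout numbers gave correlations under -0.1 in NP cells and at TN day 2, and crossing them, chosen after seeing the data, gave counts of 0 and 1.

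Leaving out 1 array at a time gave 0 to 29 calls for knockout ES cells, 0 to 2 at TN day 2, 2 to 3 at TN day 6 and 1 to 5 for ICRF-193 at TN day 5, with 0 for knockout NP cells and for ICRF-193 in cortical neurons. It gave 23 to 24 for wild-type ES to NP, 12 to 14 for NP to TN day 2, 9 to 11 for TN day 2 to TN day 6, 26 to 36, 8 to 10 and 6 to 9 for these steps in the knockout (10 called with all arrays in the last, 6 without knockout TN day 2 array 2), 19 to 20 for cortical against TN day 5 cells and 2 to 5 for cortical against ES cells. For the differences between effects it gave 0 to 2 for the drug, and for the knockout 0 to 21 in NP minus ES, 0 in TN day 2 minus NP, 0 to 1 in TN day 6 minus TN day 2, 1 to 32 in TN day 2 minus ES, 1 to 23 in TN day 6 minus ES and 0 to 1 in TN day 6 minus NP. A group left with 1 array was taken to vary like the others.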

Other observations

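Of the other genes inside the clusters, Hoxaas2 was lower in the knockout at TN day 2 (-0.65 ± 0.20, adjusted p = 0.037) and Mir10a at TN day 6 (-0.78 ± 0.23, adjusted p = 0.0278). In cortical neurons Mir10b was lower than at TN day 5 by -2.82 ± 0.20 and Haglr by -1.26 ± 0.17.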
